A study of Mus musculus with 16 samples.

Results

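The genes described here were 9 markers that published work has tied to subtypes of proprioceptive sensory neurons, the afferents of muscle spindles and Golgi tendon organs. They were Heg1, Nxph1, Pou4f3, Pcdh8, Lmcd1, Calb1, Calb2, Chad and Tac1, all listed among the 49671 gene identifiers of the series. They were followed in proprioceptor wells, defined as wells with at least 10000 unique molecular identifiers (UMIs, each standing for 1 captured transcript), Etv1 at 300 or more UMIs per 1000000 (CPM) and at least 1 UMI of both Pvalb and Ntrk3. This rule kept 344 of 960 wells in 10 libraries at embryonic day 15.5 (e15.5) and 356 of 576 wells in 6 libraries at postnatal day 1 (p1).

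Cells came from mouse dorsal root ganglia and were sequenced by CEL-Seq2, which counts UMIs at the 3′ end of transcripts in 96 wells per library. The e15.5 cells carried PvtdTom, in which the parvalbumin promoter drives tdTomato from a bacterial artificial chromosome, and were taken by fluorescence-activated sorting. The p1 libraries carried Trpv1Cre; PvFlp; Ai65 or PvCre; Ai14, both also marking cells with tdTomato, and the methods describe picking by hand although the labels name sorting. Per the methods, the Trpv1Cre cells came from 2 different alleles (Trpv1Cre-Basbaum and Trpv1Cre-Hoon) and made up most p1 cells, and the study uses these lines to mark neurons of back muscles. The labels do not say which p1 library had which alleles, which segments each library held, or whether libraries came from separate animals, so p-values measure only the spread between libraries. Age, mouse line and way of isolation changed together and cannot be told apart.

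Muscle spindles report muscle length and its change through group Ia and group II afferents, and Golgi tendon organs report muscle force through group Ib afferents. Heg1, a membrane protein with EGF-like repeats best known from endothelial junctions, and Nxph1, a secreted ligand of alpha-neurexins, are described as spindle-side markers. Pou4f3, a POU-homeodomain transcription factor that inner-ear hair cells require, is described on the tendon organ side. Pcdh8 is a protocadherin adhesion molecule, Lmcd1 a LIM-domain cofactor of transcription, and Calb1 (calbindin-D28k) and Calb2 (calretinin) are calcium-binding proteins. Chad, or chondroadherin, is a leucine-rich repeat protein of cartilage matrix, and Tac1 encodes the precursor of substance P and neurokinin A.

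Library totals ran from 3701900 to 9299431 UMIs at e15.5 and from 386517 to 8814472 at p1. The median proprioceptor well held 111228 UMIs at e15.5 and 55768 at p1, and library medians ran from 56441 to 156234 and from 12171 to 88577. P1 library 3 stood apart as the shallowest, with 11 proprioceptor wells. All libraries shared the same 96 well numbers, and 0 wells had counts identical to another well. Runx3, a proprioceptor transcription factor that the rule did not use, had a UMI in 96.8% of the proprioceptor wells at e15.5 and in 98.6% at p1. The summed nociceptor markers lay between 1.09 and 131 CPM across e15.5 libraries and between 15.2 and 91.4 CPM across p1 libraries, and none of the 5 was at 0 at either age. The summed glial markers reached 200 CPM in 19.5% of the proprioceptor wells at e15.5 and 27.0% at p1, and summed glial levels ranged from 115 to 669 CPM and from 114 to 526 CPM across libraries.

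The genes were compared first between the ages, p1 against e15.5, to follow the subtype markers over the days when afferents settle in the muscle. Heg1 rose and Pcdh8 fell, while Pou4f3, Calb1 and Tac1 were lower at p1 by amounts that did not pass the test. Nxph1 went from 1 UMI in all e15.5 proprioceptor wells to 283 UMIs at p1. Lmcd1, Calb2 and Chad were scarce at both ages. Counts were summed over the proprioceptor wells of each library and tested with the quasi-likelihood test of edgeR, with p-values adjusted after Benjamini and Hochberg over 13979 genes, in which 30.7% of genes were called higher at p1 and 31.9% lower, with a median log2 fold change of -0.03. Of the 9 genes, 5 had counts high enough to be tested, 1 was called higher, 1 lower and 3 were not called, which gives 2 of 5 called where 62.6% of all genes tested were.

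**Figure D1:**
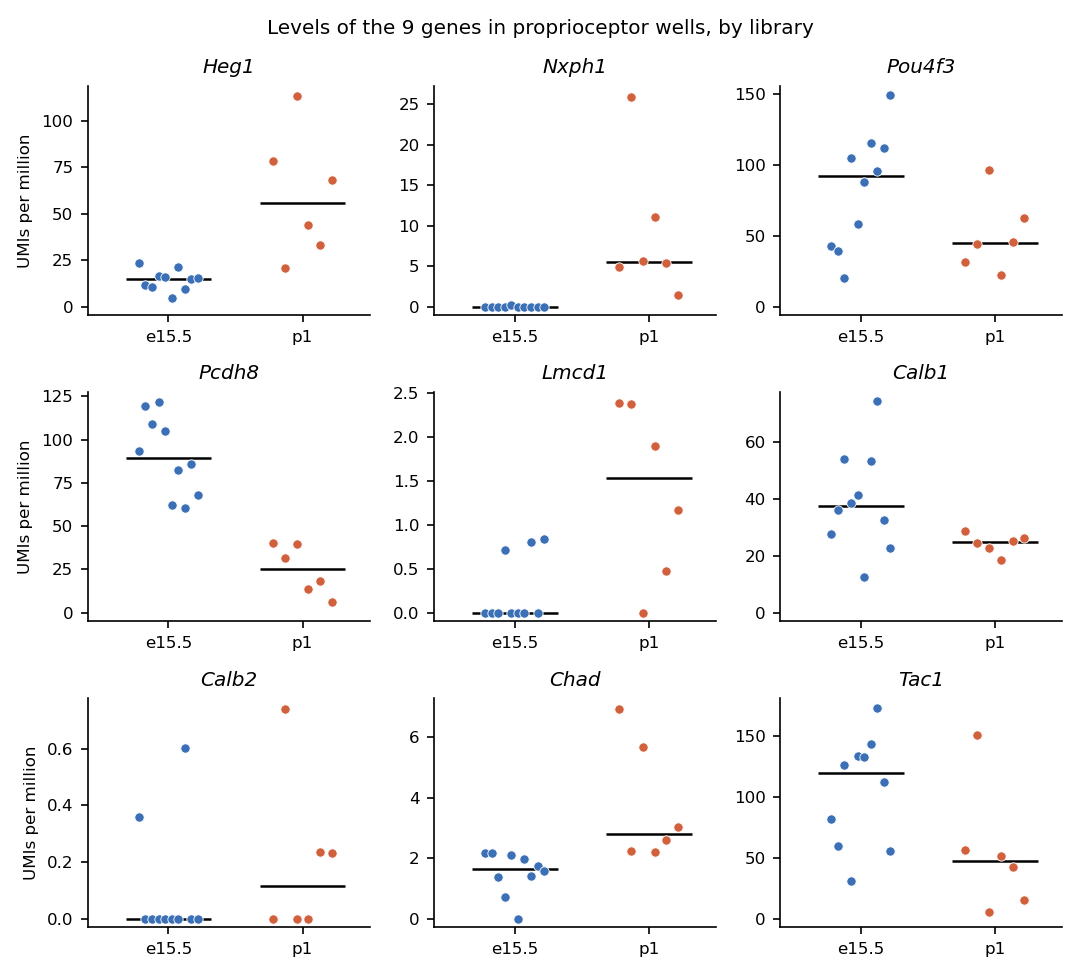
Level of each of the 9 genes in CPM, summed over the proprioceptor wells of a library, for 10 libraries at e15.5 and 6 at p1. Each point is 1 library and each bar the median. Pcdh8 levels did not overlap between the ages, Heg1 was higher in 5 of 6 p1 libraries than in any e15.5 library, and Nxph1 was at 0 in 9 of 10 e15.5 libraries.

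Heg1 (ENSMUSG00000075254, GRCm38 chr16:33684370-33771576, plus strand) ranged from 4.60 to 23.7 CPM across e15.5 libraries, with a median of 15.1 CPM. At p1 it was 78.2, 20.6, 113, 44.0, 33.3 and 67.9 CPM in libraries 1 to 6. In 5 of the 6 p1 libraries it lay above every e15.5 library, and library 2 alone fell within the e15.5 range. The log2 fold change was 2.05 ± 0.28 (SE), an increase of 4.15-fold, with an adjusted p of 2.6e-06 in edgeR's quasi-likelihood test. The share of wells with a Heg1 UMI was 59.0% at e15.5 and 70.5% at p1, and after every well had been thinned to 10000 UMIs it was 16.0% and 39.6%. The median well had 7.81 CPM at e15.5 and 32.7 CPM at p1, and 0.872% and 12.9% of wells reached 100 CPM. The tenth of wells with most Heg1 held 41.0% of its UMIs at e15.5 and 50.9% at p1.

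Heg1 was about as high at p1 in wells low in glial markers as in the others, at 50.6 CPM in wells under 200 CPM of glial markers and 54.7 CPM in the others. At e15.5 it was 13.1 CPM in the 277 wells under 200 CPM of glial markers and 23.3 CPM in the other 67 wells. Endothelial markers, which bear on a gene best known from endothelium, summed to 3.60 CPM in e15.5 proprioceptor wells and 5.04 CPM at p1, with library ranges of 1.31 to 7.16 and 0 to 11.4 CPM.

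Nxph1 (ENSMUSG00000046178, chr6:8948431-9249032, plus strand) was represented at e15.5 by 1 UMI in library 5, among 38840988 UMIs of 344 wells. At p1 it had UMIs in all libraries, at 4.90, 26.0, 5.67, 11.1, 5.44 and 1.40 CPM in libraries 1 to 6. The groups did not overlap, and library 2 was the highest of the 6. The value of p1 library 3 was a single UMI. The ratio of the pooled levels was 402, with a counting interval of 71.5 to 15924 that covers counting error only, since it rests on 1 UMI. P1 library 2 held 175 of the 283 p1 UMIs, and without it, a choice made after seeing the data, the pooled p1 level was 5.24 CPM and the ratio 203, with a counting interval of 35.7 to 8108. Nxph1 was below the count filter of the main test. Without that filter it was called higher at p1 (adjusted p = 5.8e-11 in edgeR's quasi-likelihood test, where 17.7% of 32109 genes were called higher).

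Nxph1 was found in few wells even at p1: 64 of 356 wells, or 18.0% (95% exact binomial interval 14.1 to 22.4%), against 0.291% at e15.5. After thinning the shares were 5.62% and 0.291%. The tenth of p1 wells with most Nxph1 held 90.1% of its UMIs, the highest well stood at 324 CPM, and 1.97% of wells reached 100 CPM. By library, the share was 39.2% in p1 library 2 and between 6.25% and 18.1% in the other 5.

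Pou4f3 (ENSMUSG00000024497) ranged from 19.9 to 149 CPM across e15.5 libraries, with a median of 91.9 CPM. At p1 it was 31.5, 43.9, 96.3, 22.2, 45.6 and 62.8 CPM in libraries 1 to 6, each within the e15.5 range. The log2 fold change was -0.72 ± 0.34 (SE), and the adjusted p of 0.075 in edgeR's quasi-likelihood test did not pass 0.05. It did pass when wells were thinned to 10000 UMIs (log2 fold change -0.91, adjusted p = 0.0085) and without the count filter (-0.83, adjusted p = 0.023, where 17.1% of genes were called lower). It also passed when e15.5 library 1, 2 or 3 was left out, with adjusted p of 0.048, 0.043 and 0.023, and did not pass in the other 13 fits that left out 1 library, with adjusted p up to 0.17. On the 12 libraries numbered 1 to 6 at both ages, the log2 fold change was -0.14 (adjusted p = 0.75), or -0.12 with the replicate number as a block (adjusted p = 0.79). Over all 10 alternatives other than leaving out 1 library, the adjusted p ran from 0.0085 to 0.79. The share of wells with a UMI was 73.5% at e15.5 and 57.3% at p1, or 43.0% and 22.8% after thinning.

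Pcdh8 (ENSMUSG00000036422, chr14:79766775-79771312, minus strand) ranged from 60.2 to 122 CPM across e15.5 libraries, with a median of 89.5 CPM. At p1 it was 40.5, 31.6, 39.7, 13.6, 18.4 and 6.30 CPM in libraries 1 to 6. Every p1 library lay below every e15.5 library. The log2 fold change was -1.71 ± 0.29 (SE), a 3.26-fold decrease, with an adjusted p of 3.6e-05 in edgeR's quasi-likelihood test. Wells with a UMI went from 84.6% to 46.9%, and from 48.3% to 16.9% after thinning. The tenth of wells with most Pcdh8 held 33.97% of its UMIs at e15.5 and 63.6% at p1.

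For Heg1, Nxph1 and Pcdh8, the 250 bases before the RefSeq start site (GRCm38.p6) are shown so that the promoters of the 2 genes higher at p1 can be set beside that of the gene lower at p1. Capitals mark a match to any of 5 motifs searched on both strands, namely a RUNX core (TGTGGT), an ETS site (CCGGAA), the octamer bound by POU factors (ATGCAAAT), an E-box (CAGCTG) and the cyclic AMP response element (TGACGTCA). No matches overlapped.
Heg1, chr16:33684216-33684465, plus strand: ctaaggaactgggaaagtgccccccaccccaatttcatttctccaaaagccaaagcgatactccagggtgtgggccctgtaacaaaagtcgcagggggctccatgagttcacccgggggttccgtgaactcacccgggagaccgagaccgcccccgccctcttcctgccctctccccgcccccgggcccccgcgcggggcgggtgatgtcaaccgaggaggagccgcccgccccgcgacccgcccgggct
Nxph1, chr6:8949769-8950018, plus strand: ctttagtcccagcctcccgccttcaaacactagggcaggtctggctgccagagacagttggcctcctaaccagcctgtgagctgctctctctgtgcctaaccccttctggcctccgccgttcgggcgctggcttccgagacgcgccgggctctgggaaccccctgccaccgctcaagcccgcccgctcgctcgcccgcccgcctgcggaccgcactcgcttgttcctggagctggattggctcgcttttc
Pcdh8, chr14:79771313-79771562, minus strand: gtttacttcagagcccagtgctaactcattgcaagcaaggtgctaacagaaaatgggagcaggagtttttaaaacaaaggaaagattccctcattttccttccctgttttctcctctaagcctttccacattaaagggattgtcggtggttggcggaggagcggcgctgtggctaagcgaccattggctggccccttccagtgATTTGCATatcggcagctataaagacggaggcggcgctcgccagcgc
The only match was 1 octamer in the Pcdh8 window, as its reverse complement, a motif that 1.601% of all 32851 promoter windows held. The other 4 motifs were in between 1.55% (the cyclic AMP response element) and 14.05% (the RUNX core) of all windows. G and C made up 68.0% of the Heg1 window, 66.8% of the Nxph1 window and 51.2% of the Pcdh8 window, against a median of 52.4% over all windows, and CG occurred 21, 20 and 11 times, against a median of 6.

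Calb1 (ENSMUSG00000028222, chr4:15881264-15908064, plus strand) ranged from 12.5 to 74.6 CPM across e15.5 libraries, with a median of 37.5 CPM. At p1 it was 28.6, 24.6, 22.7, 18.4, 25.3 and 26.1 CPM in libraries 1 to 6, all within the e15.5 range. The log2 fold change was -0.45 ± 0.25 (SE), with an adjusted p of 0.13 in edgeR's quasi-likelihood test. The p1 libraries were closely grouped, with an SD of 3.49 CPM against 17.8 CPM at e15.5. Without e15.5 library 6, the lowest, the adjusted p was 0.036, and over all libraries left out in turn it ran from 0.036 to 0.29. The share of wells with a UMI was 61.0% at e15.5 and 55.1% at p1, or 20.6% and 16.0% after thinning.

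Tac1 (ENSMUSG00000061762, chr6:7554879-7565834, plus strand) ranged from 30.8 to 173 CPM across e15.5 libraries, with a median of 119 CPM. At p1 it was 56.7, 151, 5.67, 51.7, 42.1 and 14.9 CPM in libraries 1 to 6. The ages overlapped, with 2 p1 libraries below all e15.5 libraries and library 2 among the high ones. Of those 2, library 3 held 1 Tac1 UMI. The log2 fold change was -0.53 ± 0.40 (SE), with an adjusted p of 0.26 in edgeR's quasi-likelihood test. Without p1 library 2 the change was -1.16 and the adjusted p 0.010, in a range of 0.010 to 0.51 over all libraries left out in turn. The tenth of wells with most Tac1 held 56.9% of its UMIs at e15.5 and 77.3% at p1. P1 library 2 held 1016 of the 1919 p1 UMIs in 79 of 356 wells, and without it that share was 74.5%. Its share of wells was 75.9% at e15.5 and 55.6% at p1, or 42.4% and 27.2% after thinning.

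P1 library 2 held the highest Nxph1, Tac1 and Calb2 levels of the 6 p1 libraries and the lowest Heg1. Gabrg1, a GABA-A receptor subunit that the study used for limb-innervating neurons, spanned 7.93 to 224 CPM across the p1 libraries. Tox, which it used for back-innervating neurons, spanned 4.45 to 108 CPM. Neither range says where library 2 lay. Which mouse line library 2 came from is not in the labels, and the part of line or segment in these values was not tested.

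Chad (ENSMUSG00000039084, chr11:94565047-94569127, plus strand) was between 0 and 2.18 CPM in e15.5 libraries and at 6.95, 2.23, 5.67, 2.22, 2.60 and 3.03 CPM in p1 libraries 1 to 6. All 6 p1 libraries lay above all e15.5 libraries, but on few UMIs, with 1 in p1 library 3. The closest values were 2.22 CPM in p1 library 4 (7 UMIs) and 2.18 CPM in e15.5 library 2 (6 UMIs). Without the count filter Chad was called higher at p1, with a log2 fold change of 1.24 ± 0.36 (SE) and an adjusted p of 0.0063 in edgeR's quasi-likelihood test. After thinning, only 1.16% of e15.5 wells and 1.97% of p1 wells had a Chad UMI, with 95% exact intervals of 0.318 to 2.95% and 0.794 to 4.01% that overlap.

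Lmcd1 (ENSMUSG00000057604, chr6:112273758-112330425, plus strand) had 12 UMIs at e15.5 and 50 at p1. It was at 0 in 7 of 10 e15.5 libraries and at most 0.844 CPM in the others, and at 2.39, 2.38, 0, 1.90, 0.473 and 1.17 CPM in p1 libraries 1 to 6. The groups overlapped. Without the count filter its log2 fold change was 2.54 ± 0.61 (SE), with an adjusted p of 0.0012 in edgeR's quasi-likelihood test. At equal depth 0.581% of e15.5 wells and 0.562% of p1 wells had an Lmcd1 UMI.

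Calb2 (ENSMUSG00000003657, chr8:110137502-110168210, minus strand) had 4 UMIs in 3 wells at e15.5 and 7 UMIs in 5 wells at p1. It was at 0 in 8 of 10 e15.5 libraries and in 3 of 6 p1 libraries, and no library passed 0.742 CPM. Without the count filter its log2 fold change was 1.18 ± 0.86 (SE), with an adjusted p of 0.28 in edgeR's quasi-likelihood test.

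The median proprioceptor well had UMIs of 4 of the 9 genes at e15.5 and of 3 at p1, or 2 and 1 after thinning to 10000 UMIs. None of the 9 was found in 5 wells at e15.5 and in 21 wells at p1. Genes that overlap a member in the annotation (Gm15657 at Heg1, Gm35736 at Nxph1, Gm9748 at Pcdh8, 5031434C07Rik and Gm44193 at Lmcd1, and Acsf2 at Chad) each had under 1 CPM in proprioceptor wells of both ages.

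The same genes were next set against wells that were not proprioceptors, at e15.5 only, because p1 held 1 connective tissue well and 6 other sensory neuron wells, too few for a background share at p1. Connective tissue wells (368, median 28177 UMIs) had 1000 CPM or more of the collagen genes Col1a1, Col1a2 and Col3a1 and under 100 CPM of Avil and Isl1 together. Other sensory neuron wells (46, median 92254 UMIs) had Avil and Isl1 at 300 CPM or more but Etv1 under 300 CPM. The wells came from the same libraries, and e15.5 proprioceptor sums served both comparisons.

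**Figure D2:**
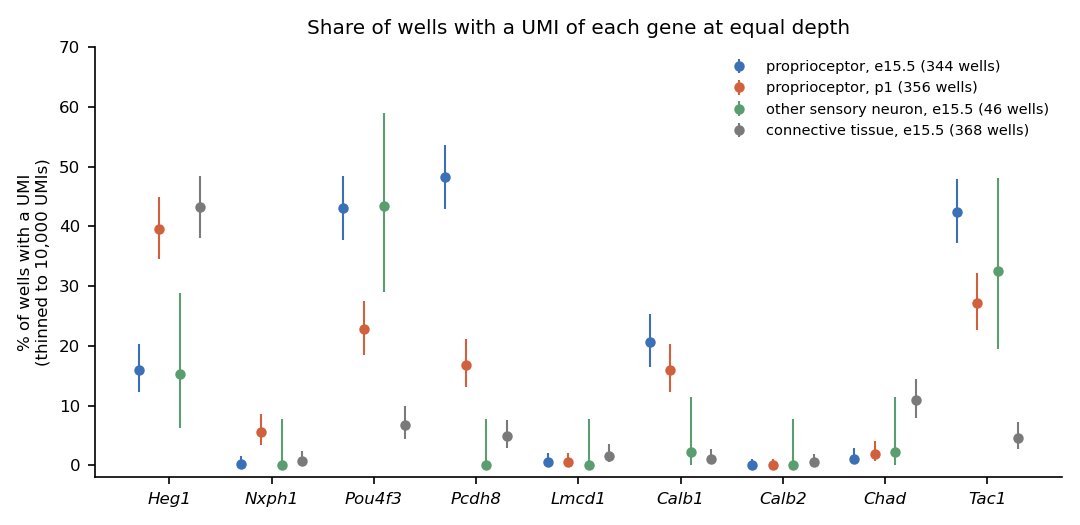
Percentage of wells with at least 1 UMI of each gene after each well was thinned to 10000 UMIs, for proprioceptor wells at e15.5 and p1 and for other sensory neuron and connective tissue wells at e15.5, with 95% exact binomial intervals that cover counting error only. Heg1 reached 43.2% of connective tissue wells, Pcdh8 0% of other sensory neuron wells, and Chad was more frequent in connective tissue wells (10.9%) than in proprioceptor wells.

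Calb1, Tac1, Pou4f3 and Pcdh8 were higher in proprioceptor than in connective tissue wells and Heg1 was lower. Here 41.3% of 11908 genes were called higher in proprioceptor wells and 38.5% lower, so most genes passed. Of the 5 genes tested, 4 were called higher and 1 lower by the same test. Connective tissue libraries held 0 to 2.01 CPM of Calb1, 0 to 10.5 of Tac1, 0.500 to 16.7 of Pou4f3 and 1.25 to 16.7 of Pcdh8, each below every proprioceptor library. The log2 fold changes were 5.04 ± 0.43 for Calb1, 4.28 ± 0.37 for Tac1, 4.17 ± 0.43 for Pou4f3 and 4.15 ± 0.30 for Pcdh8 (SE), with adjusted p of 2.8e-10, 2.8e-10, 6.1e-09 and 1.8e-11.

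Heg1 was the exception: it lay between 16.7 and 118 CPM in connective tissue sums, with a median of 60.5 CPM, against a median of 15.1 CPM in proprioceptor sums. Its log2 fold change was -2.36 ± 0.26 (SE), a 5.13-fold lower level in proprioceptor wells, with an adjusted p of 1.7e-08 in edgeR's quasi-likelihood test. The ranges overlapped at their ends. The endothelial markers summed to 23.7 CPM in connective tissue wells against 3.60 CPM in proprioceptor wells. Cdh5 (16.5 against 0.129 CPM) and Kdr (6.60 against 1.06 CPM) were higher in connective tissue wells. Pecam1 (0.543 against 2.39 CPM) and Cldn5 (0 against 0.0257 CPM) were lower in them. The part of these markers in the Heg1 difference was not tested.

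Chad stood at 23.3 CPM and in 19.8% of the connective tissue wells, against 1.67 CPM and 13.95% of the proprioceptor wells, although the latter were deeper. Cartilage markers summed to 756 CPM in connective tissue wells and 13.2 CPM in proprioceptor wells. Shares of wells for Lmcd1 (4.62% against 1.74%), Calb2 (1.63% against 0.872%) and Nxph1 (1.09% against 0.291%) were also higher in connective tissue than in proprioceptor wells at e15.5, so none of these 4 genes exceeded the background share there. Without the count filter all 4 were called lower in proprioceptor wells (23.4% of 30257 genes were), with adjusted p between 1.6e-11 for Chad and 0.020 for Calb2 in edgeR's quasi-likelihood test. Pou4f3 had a UMI in 10.6% of connective tissue wells, Tac1 in 10.9%, Pcdh8 in 9.51% and Calb1 in 2.99%, below their shares in proprioceptor wells of either age, and 6.79%, 4.62%, 4.89% and 1.09% after thinning.

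Against other sensory neurons, Pcdh8 and Calb1 were higher in proprioceptor wells, and Heg1, Pou4f3 and Tac1 were not called. Across 12908 genes, edgeR's quasi-likelihood test called 9.16% higher and 9.9% lower, so 2 of 5 genes higher was above that share, from few genes. With the library as a block, which paired sums from the same library, 1602 genes in all were called rather than 2460, and the same 2 of the 9 genes.

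Pcdh8 was at 2.48, 0.565, 0 and 2.76 CPM in the other sensory neurons of e15.5 libraries 1, 3, 9 and 10, the 4 with 5 or more such wells. Each was far below the lowest proprioceptor library (60.2 CPM). The log2 fold change was 6.15 ± 0.44 (SE), with an adjusted p of 6.3e-08 in edgeR's quasi-likelihood test, and 6 of 46 other sensory neuron wells had a UMI. Calb1 was at 8.69, 8.48, 23.6 and 9.67 CPM in these libraries, within or below the proprioceptor range. Its log2 fold change was 1.69 ± 0.46 (SE), with an adjusted p of 0.015, which became 0.10 without e15.5 library 3 (range over libraries left out in turn, 0.0039 to 0.10).

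Pou4f3 was at 44.7, 83.1, 80.3 and 250 CPM in the other sensory neurons of libraries 1, 3, 9 and 10, values that overlap those of proprioceptors. Its log2 fold change of -0.44 ± 0.44 (SE) had an adjusted p of 0.57, and the 95% interval from -1.30 to 0.43 allows a difference in either direction. Pou4f3 was thus detected across e15.5 sensory neurons, in 84.8% of other sensory neuron wells and 73.5% of proprioceptor wells. Heg1 gave a log2 fold change of 0.11 ± 0.45 (SE, interval -0.76 to 0.99, adjusted p = 0.92) and Tac1 0.99 ± 0.51 (SE, interval -0.016 to 1.9998, adjusted p = 0.21), all from edgeR's quasi-likelihood test. Without e15.5 library 9, Tac1 was called higher (log2 fold change 1.84, adjusted p = 0.035, in a range of 0.035 to 0.46 over libraries left out in turn).

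**Figure D3:**
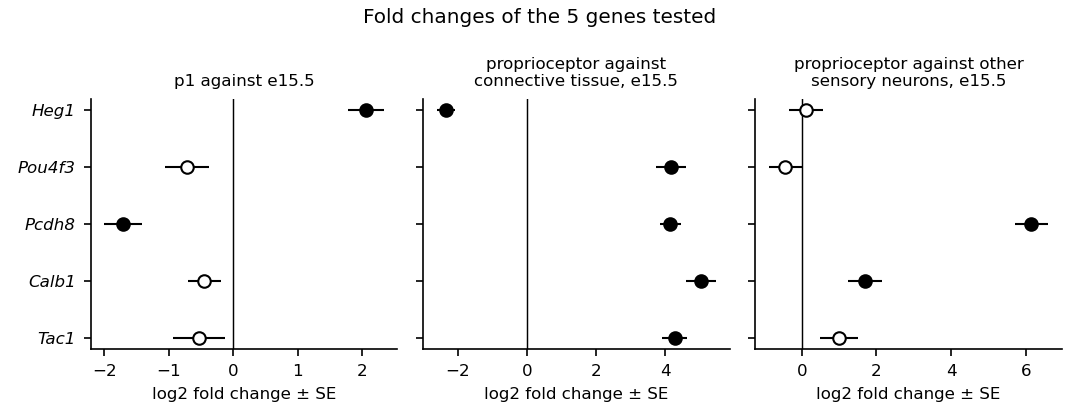
Log2 fold changes with standard errors for the 5 genes tested in the 3 comparisons, with positive values higher at p1 (left) or higher in proprioceptor wells (middle and right). Filled points have an adjusted p under 0.05. Pcdh8 is filled in all 3 panels and Heg1 changes sign between the left and the middle panel.

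The genes were then compared with one another, by Pearson's r of log2(CPM/10 + 1) over the proprioceptor wells of each library, given as the median over libraries. These values are descriptions: wells of a library share its depth and preparation, and a deep well has more UMIs of every gene. The r of each gene with log10 UMIs had medians of up to 0.46 at e15.5, for Pcdh8, and up to 0.30 at p1, for Pou4f3. Pairs were named where both genes had a UMI in at least 20% of wells, which left Heg1, Pou4f3, Pcdh8, Calb1 and Tac1 at both ages and 10 pairs at each age.

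None of these 10 pairs had a median r above 0.3 at either age. The median over the 10 pairs was 0.0503 at e15.5 and 0.0668 at p1. At e15.5 the highest was Pcdh8 with Calb1 (0.278, positive in 10 of 10 libraries), followed by Calb1 with Tac1 (0.141), Heg1 with Pcdh8 (0.131), Pou4f3 with Pcdh8 (0.105) and Pcdh8 with Tac1 (0.0686). The lowest 5 were Heg1 with Tac1 (-0.0669), Heg1 with Calb1 (-0.0134), Pou4f3 with Tac1 (0.00365), Heg1 with Pou4f3 (0.0187) and Pou4f3 with Calb1 (0.0320).

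At p1 Calb1 with Tac1 was highest (0.234, at least 0.178 in each of 6 libraries), followed by Pou4f3 with Calb1 (0.148), Pou4f3 with Pcdh8 (0.130), Heg1 with Calb1 (0.121) and Heg1 with Pou4f3 (0.0673). In library 3 the value for Calb1 with Tac1 rested on 1 Tac1 UMI in 1 of 11 wells. UMIs of both were in 142 p1 wells, against 115 from the product of the shares within libraries, and in 19 against 16.1 after thinning. The lowest 5 were Pou4f3 with Tac1 (-0.242), Heg1 with Pcdh8 (-0.0832), Pcdh8 with Calb1 (-0.0212), Pcdh8 with Tac1 (0.0194) and Heg1 with Tac1 (0.0663). Pcdh8 with Calb1, the highest pair at e15.5, was thus near 0 at p1. After thinning to 10000 UMIs, its e15.5 median was 0.0979 and it was positive in 7 of 10 libraries.

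Heg1 and Pou4f3, described on the spindle and the tendon organ side, were not opposed in these wells. Their r was -0.0398, 0.248, 0.630, -0.274, 0.168, -0.502, -0.0547, -0.0238, 0.0611 and 0.103 in e15.5 libraries 1 to 10, and 0.254, 0.101, 0.613, 0.0335, 0.0196 and -0.133 in p1 libraries 1 to 6. The extremes at e15.5 and the highest value at p1 came from libraries of 11 or 14 wells. Of the p1 wells, 158 had UMIs of both, against 146 from the product of the shares within libraries, and 35 against 33.97 after thinning.

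**Figure D4:**
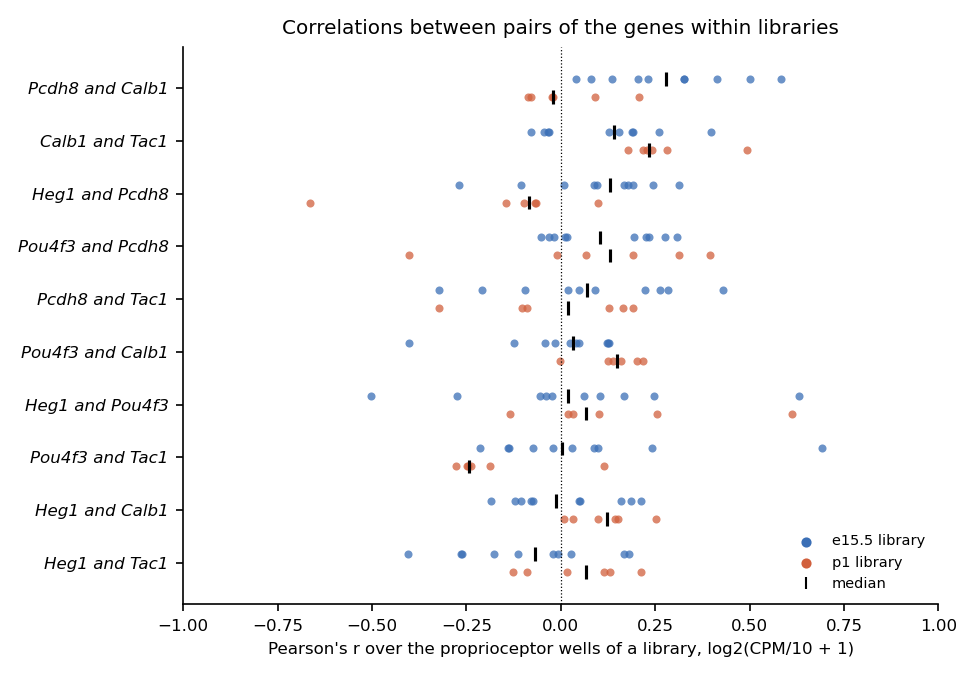
Pearson's r over the proprioceptor wells of each library for the 10 pairs of genes found in at least 20% of wells, on log2(CPM/10 + 1), with each point 1 library (10 at e15.5, 6 at p1) and bars for the medians. The medians lie between -0.242 and 0.278, and libraries spread widely around most of them.

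Pou4f3 and Tac1 were negatively related at p1, with r of -0.246, -0.278, 0.115, -0.237, -0.187 and -0.248 in libraries 1 to 6. Library 3, the positive one, had 11 wells and 1 Tac1 UMI, and without it the median was -0.246. At e15.5 the sign varied, from -0.215 to 0.691, with 5 of 10 libraries negative. Among p1 wells thinned to 10000 UMIs, 12 had UMIs of both genes against 21.5 from the product of the shares within libraries, while at full depth the counts were 116 and 116. The median r at p1 was -0.202 as Spearman's rho, -0.136 after thinning and -0.297 without wells with glial transcripts.

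**Figure D5:**
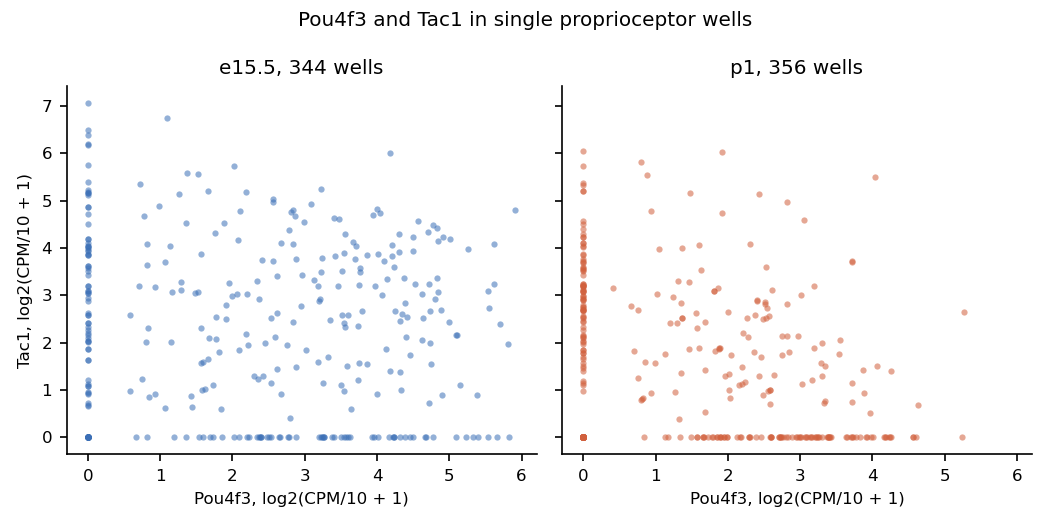
Pou4f3 against Tac1 in single proprioceptor wells, both as log2(CPM/10 + 1), for 344 wells at e15.5 and 356 at p1. Each point is 1 well, and wells without a UMI of a gene lie on its zero line; at p1, 88 wells held Pou4f3 without Tac1 and 82 held Tac1 without Pou4f3.

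Nxph1, although in under 20% of p1 wells, was related to Tac1 with r of 0.475, 0.373, -0.100, 0.273, 0.403 and -0.153 in p1 libraries 1 to 6. In library 3 each of the 2 genes had 1 UMI, and in libraries 4 and 6 Nxph1 was found in 4 wells each. The median of 0.323 was above that of every member pair passing the 20% rule, but it includes these libraries of few wells with Nxph1. Of the 64 wells with Nxph1, 54 also had Tac1, against 42.0 from the product of the shares within libraries, and 12 against 6.40 after thinning. Nxph1 and Heg1, both described as spindle-side, were found together in 48 wells against 42.7, and in 3 against 6.20 after thinning. With Gabrg1, Nxph1 had r of -0.0313, 0.507, 0.362, 0.364, 0.530 and 0.0687 in the same libraries, again with 1 Nxph1 UMI in library 3.

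Among the genes the study linked to muscle type on these same cells, so that they are not independent of them, Pcdh8 had its highest median r with Epha3 at e15.5 (0.333, positive in 8 of 10 libraries), and this was -0.0615 at p1. Tac1 with Efna5 went from -0.0692 at e15.5 to 0.329 at p1. Heg1 with Tox, a marker used for back-innervating neurons, was similar at the 2 ages, with 0.229 and 0.243. These 3 were described from 20 pairs of members and muscle-type genes at each age, of which 12 were positive at e15.5 and 13 at p1.

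The genes whose levels followed each member most closely were taken from 15437 genes at e15.5 and 14893 at p1, again by median r within libraries. For Pcdh8 at e15.5 they were Fstl5 (0.728), Ntrk3 (0.664) and Scn3a (0.648), the highest values for any member, and all 3 were near 0 at p1 (-0.0629, -0.0715 and -0.0457). Ntrk3, the receptor of neurotrophin 3, was part of the rule that chose the wells. Pcdh8 was also the member that followed log10 UMIs most closely at e15.5. Nearest genes were not chosen again on thinned wells, so the part of depth in these values was not tested. At p1 the genes nearest to Pcdh8 were Bambi (0.400), Itga2 (0.380) and Gclm (0.345).

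For Pou4f3 the nearest genes were Shisal1 (0.542), Crtac1 (0.536) and Mark1 (0.517) at e15.5, all positive in every library, and Gnas (0.379), Stmn2 (0.371) and Prkar2b (0.362) at p1. Prkar2b had an r of 0.369 with Pou4f3 at e15.5, close to its p1 value, and Mark1 had one of 0.332 at p1, below its e15.5 value. For Heg1 they were Sesn3 (0.422), Ptgfrn (0.401) and Msh6 (0.389) at e15.5, and Dlc1 (0.412), Map1lc3b (0.357) and Msi2 (0.351) at p1.

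For Calb1 they included Slc44a5 (0.433) and Epha7 (0.396) at e15.5, and Adora1 (0.425), Rps7 (0.367) and Flrt2 (0.365) at p1. For Tac1 they were Tmeff2 (0.458), Rgs20 (0.445) and Slc2a3 (0.418) at e15.5, and Brinp3 (0.386), Vstm2b (0.360) and Sema3d (0.342) at p1. None of the 15 genes chosen at e15.5 was chosen again for the same member at p1. The choice of nearest genes was not stable, since 7 of 15 and 3 of 15 were also chosen by Spearman's rho at e15.5 and p1, and 4 of 15 and 2 of 15 without wells with glial transcripts.

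Relatives and partners of the 9 genes were compared between the ages in the same fit as the members. Of 13 relatives, 7 were tested, 1 was called higher at p1, 4 lower and 2 not, with a median log2 fold change of -0.46, where 62.6% of all genes tested were called, 30.7% higher and 31.9% lower. With 5 of 7 called, the share was near that of all genes. Pcdh17 rose (0.89 ± 0.32), while Pcdh19 (-1.26 ± 0.22), the POU factor Pou4f2 (-1.14 ± 0.22), Chadl (-0.87 ± 0.35) and Pou4f1 (-0.27 ± 0.08) fell, as log2 fold changes ± SE with adjusted p of 0.023, 5.3e-05, 0.00015, 0.035 and 0.0088 in edgeR's quasi-likelihood test. Pou4f3, not called, thus had 2 relatives that were. Pou4f1, the most familiar marker of sensory neurons among these, was at 161 to 234 CPM in e15.5 libraries and 131 to 147 CPM in p1 libraries. Nxph2 and Nxph4 stayed under 1 CPM at both ages, and Nxph3 was at 0.721 CPM at e15.5 and 2.49 CPM at p1 and was not tested.

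Of 13 binding partners, 10 were tested, 5 were higher, 3 lower and 2 not called, with a median log2 fold change of 0.06, again beside 30.7% higher and 31.9% lower over all genes. Among the neurexins, whose alpha forms bind neurexophilins such as Nxph1, Nrxn3 rose by 2.29 ± 0.23 and Nrxn2 by 1.22 ± 0.11, with adjusted p of 5.9e-08 and 1.3e-08 in edgeR's quasi-likelihood test. Nrxn3 was at 26.6 to 92.7 CPM in e15.5 libraries and 154 to 309 CPM in p1 libraries. Among proteins of the complexes that Heg1 joins in endothelium, Pdcd10 rose (0.64 ± 0.09), Ccm2 fell (-0.31 ± 0.11) and Rasip1 fell (-1.45 ± 0.22), with adjusted p of 2.3e-06, 0.015 and 1.3e-05, and Krit1 was not called (-0.15, adjusted p = 0.22). Tacr3, a receptor of tachykinins, fell (-1.32 ± 0.44, adjusted p = 0.013), and Tacr1 and Tacr2 were not tested, at 0.644 and 0 CPM at e15.5.

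Of 13 genes of spindle induction and end-organ innervation, 10 were tested, 7 were higher, 1 lower and 2 not called, with a median log2 fold change of 0.72 against -0.03 over all genes, of which 30.7% were called higher and 31.9% lower. Slc17a7, the vesicular glutamate transporter of afferent terminals, rose most (3.59 ± 0.16), followed by Whrn (2.42 ± 0.15), a scaffold protein known from hair-cell stereocilia, the acid-sensing channel Asic2 (1.26 ± 0.21) and the neurotrophin receptor Ntrk2 (1.25 ± 0.47), with adjusted p of 5.1e-13, 6.2e-11, 3.8e-05 and 0.025 in edgeR's quasi-likelihood test. Ntrk2 also marks low-threshold mechanoreceptors. The summed mechanoreceptor markers (Ntrk2, Maf, Ret and Mafa) were at 80.4 CPM in e15.5 proprioceptor wells, with libraries from 42.1 to 107 CPM and Mafa at 0, and at 139 CPM in p1 wells, with libraries from 109 to 187 CPM. Between the ages Ntrk2 went from 5.64 to 12.2 CPM, Maf from 37.9 to 111 CPM and Ret from 36.9 to 16.1 CPM, and the part of such cells in the Ntrk2 difference was not tested. Etv4, an ETS factor, fell (-3.32 ± 0.61, adjusted p = 9.0e-05). Nrg1, the neuregulin by which afferents induce spindles, was also called higher (0.31 ± 0.12, adjusted p = 0.028). Of 6 muscle-type genes, Gabrg1 (2.26 ± 0.70, adjusted p = 0.0081) and Efna5 (1.29 ± 0.36, adjusted p = 0.0038) were higher and 4 were not called, a share near the 30.7% of all genes called higher.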

How the data were processed

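Single cells from dorsal root ganglia were sequenced by CEL-Seq2 in 16 libraries. Per the methods, the authors demultiplexed, aligned and counted reads with scruff, and the deposited values are raw UMI counts per gene and well, not normalized. The genome build is mm10/GRCm38 in the submitters' processing notes, and the sources used here do not give the annotation. Symbols and gene positions were taken from GENCODE for GRCm38, which gave a symbol to 49326 of 49671 identifiers. Identifiers without one held 0.0617% of UMIs. Promoter windows came from RefSeq, GRCm38.p6.

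Wells were classed as described with the results. Counts were summed per library (and class) where it held at least 5 such wells, and tested with edgeR 4.0.16 (R 4.3.3): filterByExpr, TMM and glmQLFTest, Benjamini-Hochberg adjustment over all genes tested, threshold 0.05. This gave 10 sums against 6 for age, 10 against 9 for connective tissue and 10 against 4 for other sensory neurons. Etv1, Pvalb and Ntrk3 chose the wells and were not tested. CPM is UMIs per 1000000 UMIs of the summed wells. Shares have 95% exact binomial intervals and, for thinned values, 1 random draw of 10000 UMIs per well. Correlations used libraries with at least 10 proprioceptor wells. Intervals cover counting error only. Tables and figures were made in Python 3.11.15 with NumPy 2.4.6, pandas 2.3.3, SciPy 1.17.1 and Matplotlib 3.10.9. On counts simulated from these sums with 200 genes changed 4-fold, the test recovered 98.0% (age, 13979 genes), 100% (connective tissue, 11908 genes) and 91.5% (other sensory neurons, 12908 genes). Far fewer genes changed there than the 62.6% called between the ages. Recovery of 4-fold changes says nothing of smaller ones, such as the 1.64-, 1.36- and 1.44-fold age differences of Pou4f3, Calb1 and Tac1. Doublets were not called. Wells with glial transcripts, meaning 200 CPM or more of the summed glial markers, were left out as an alternative.

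The 9 genes, the gene lists and the rules for wells were chosen with earlier results of these data known. Beyond the 9 genes, the text names the 5 highest and 5 lowest member pairs per age with both genes in at least 20% of wells, the 3 genes nearest each such member per age among genes found in at least 10% of wells, and up to 4 called genes per list and direction by fold. Other genes named were chosen after their values were seen. A few genes that this rule chose are not reported here. Alternatives were DESeq2 1.42.0, no count filter, other floors for UMIs (20000) and Etv1 (150 and 600 CPM), thinning, other minimum numbers of wells, Spearman's rho, blocks and leaving out each library.

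Same-numbered libraries at e15.5 and p1 share only a number. Sums of different classes at e15.5 come from the same library, and the deviations of same-library sums from their class means had a median r of 0.206 against connective tissue (7 of 9 above 0.1) and 0.430 against other sensory neurons (4 of 4 above 0.1).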

Additional observations from a re-analysis of the deposited data

Results flagged for a closer look

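Over 36 sets of library values (the level and the share of wells of each gene at each age), 7 had a highest or lowest library separated from the rest by more than Dixon's 95% critical value. Chance would flag about 1 in 20 sets of independent, normally distributed values. That rate does not hold here, because several sets are mostly 0 and the level and share of a gene rest on the same counts. P1 library 2, with 79 proprioceptor wells, was the highest in 3 of them: Tac1 at 151 CPM (next library 56.7 CPM), Calb2 at 0.742 CPM (next 0.236 CPM) and the share of wells with Nxph1 at 39.2% (next 18.1%). Calb2 there rests on a total of 7 UMIs over all p1 wells.

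At e15.5, the share of wells with Heg1 was lowest in library 6, at 28.6% of 14 wells (next 51.7%). The single Nxph1 UMI put library 5 apart at 0.176 CPM and 2.13% of wells, with every other library at 0. Lmcd1 was found in 9.09% of the wells of library 4, which held 11 wells (next 4.55%).

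The 113 e15.5 wells with at least 10000 UMIs that met no class rule (median 19999 UMIs) were outside the comparisons, and 3 genes stood there above their level in all 3 classes. Nxph1 was at 33.2 CPM, with 91 UMIs in 27 wells (23.9%), against 0.0257 CPM in proprioceptor wells, 0.181 CPM in other sensory neuron wells and 0.995 CPM in connective tissue wells. Lmcd1 was at 2.19 CPM and Calb2 also at 2.19 CPM, each from 6 UMIs in 4 wells. Split at 200 CPM of glial markers, Nxph1 was at 8.52 CPM in the 14 wells above and 36.8 CPM in the 99 wells below. Of the 113 wells, 87.6% had a UMI of Col1a1, 59.3% of Etv1, 44.2% of Avil and 43.4% of Isl1. The Col1a1 share was 82.6% in other sensory neuron wells and 99.2% in connective tissue wells, in classes of unlike depth. Its level was 2338 CPM in the 113 wells, 81.2 CPM in other sensory neuron wells and 10067 CPM in connective tissue wells. The split was chosen after seeing the data, and which cells these wells held was not tested.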

How the results depend on the processing

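Heg1 and Pcdh8 kept their direction and call between the ages in all 10 alternatives and in all 16 fits that left out 1 library. Of the 10, sums of at least 10 wells kept all 16 libraries, so that fit only repeated the main one. Without the count filter all 9 genes were tested, 4 were called higher at p1 and 2 lower (17.7% and 17.1% of all genes were). The second lower was Pou4f3, tested in both fits. With wells thinned to 10000 UMIs, 2 were called lower and 4290 genes in all, from 7764 tested. Leaving out 1 library gave 1 to 2 members called higher, the second being Nxph1 without p1 library 6, 1 to 2 called lower and 8174 to 9129 genes in all. In the main fit 30.7% of 13979 genes were called higher and 31.9% lower. Same-numbered libraries of the ages did not deviate together (median r -0.235, from -0.279 to 0.295, with 1 of 6 libraries correlating best with its own number). With the replicate number as a block, on 6 libraries an age, 1 member was called higher and 1 lower, and 6588 of 12974 genes in all. Without the block those libraries gave 7292 of 12974 genes, in a fit added after seeing the data.

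Against connective tissue, dropping the count filter gave 5 members called lower, where 23.4% of 30257 genes were, and 14467 genes called in all. Leaving out 1 library gave 4 higher throughout and 1 to 2 lower, the second being Chad without e15.5 library 10. In the main fit 41.3% of 11908 genes were called higher and 38.5% lower. Against other sensory neurons, the library block moved the total from 2460 to 1602 of 12908 genes. Leaving out 1 library gave 1 to 3 members called higher, where the main fit called 9.16% of all genes higher. Changes of sign there were Heg1, at -0.068 without wells with glial transcripts and from -0.27 (without e15.5 library 9) to 0.53 over libraries left out, and Pou4f3, from -0.62 to 0.082 (without e15.5 library 10), none of them called. The library block changed no member's call. Of 5 members found in at least 20% of p1 wells, 3 remained above 20% after thinning. The nearest genes were those that changed most, with 7 and 4 of 15 kept at e15.5 and 3 and 2 of 15 at p1 by Spearman's rho and without wells with glial transcripts. The cause was not tested. Calb2, Lmcd1, Chad and Nxph1 had pooled p1 levels below that of 1 UMI in a median p1 well.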
